A study of Mus musculus with 12 samples.

Results

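Regions of open chromatin that the Negative and Sublow populations of mouse intestinal epithelium had in common, and for which no peak was listed in the Low and High populations, numbered 2613 of 82365 merged regions. They were chosen by presence in 4 deposited peak lists. Peaks from different lists were joined into 1 merged region where they shared 1 bp or more or lay side by side, and a region was kept where both the Negative and the Sublow list had a peak and neither of the other lists did. The 2613 regions were 3.17% of all merged regions (exact 95% binomial interval 3.05 to 3.29%), 5.88% of the 44405 regions with a Negative peak and 5.05% of the 51751 regions with a Sublow peak. Presence was read from the lists themselves, so the number of regions and their absence from Low and High describe the choice and are not findings.

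The cells came from C57Bl/6 mice with the Sox9EGFP reporter, in which green fluorescence follows the activity of Sox9. They were sorted by reporter level into Sox9 Negative, Sox9 Sublow, Sox9 Low and Sox9 High cells, with 3 libraries for each population and 12000 cells named as collected per population. All groups carry the reporter, and the labels give no age and do not tie libraries to animals. Each population is represented by 1 consensus list of Omni-ATAC-seq peaks with no value per library, so no value below has a replicate error, no test across replicates could be made, and the intervals given reflect counting error alone. They take each region as independent, and since regions near each other are not, they are too narrow. The depth behind the lists is unknown.

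Sox9 is a transcription factor of the intestinal crypt, the pocket of the epithelium where stem cells and their dividing daughters lie. In work with this reporter mouse, crypt base stem cells were found mainly among Low cells, transit-amplifying progenitors among Sublow cells, and absorptive enterocytes and other differentiated cells among Negative cells. High cells, with the most Sox9, were also largely differentiated, of the enteroendocrine and tuft lineages, so the reporter level is not a plain measure of differentiation. Tn5 transposase, the enzyme of ATAC-seq, cuts DNA that is not wrapped tightly around histones. Peaks therefore mark promoters, enhancers and other sites where proteins reach the DNA. Regions listed in Negative and Sublow cells alone thus belong to the populations with the lowest reporter levels. No genome or annotation on mm9 was used, so regions are given by mm9 position, with no gene, motif or sequence, and the sorted populations could not be checked against the promoters of marker genes.

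In these regions the Negative peak was mostly the wider of the pair, whereas the Sublow peak was mostly the wider in regions that Low also held. Of the 2613 regions, 2602 held 1 Negative and 1 Sublow peak, 8 held 1 Negative and 2 Sublow peaks, and 3 held 2 Negative peaks and 1 Sublow peak. Among the 2602, the Negative peak was wider in 1934 (74.3%), the Sublow peak was wider in 660 (25.4%, exact interval 23.7 to 27.1%), and the widths were equal in 8. The median width was 304.5 bp for Negative peaks and 225 bp for Sublow peaks. The median log2 ratio of Sublow to Negative width was -0.32 (exact interval of the median -0.34 to -0.30), a Negative peak 1.25 times as wide as its Sublow partner. The direction turned, to a log2 ratio of 0.12, when only the widest 22730 peaks of each list were used. Of the 1253 regions of that setting, 77 were of Negative and Sublow only in the full lists, and in those 77 the ratio was -0.08. That setting kept peaks by width, from 394 bp in Negative and 520 bp in Sublow, so both ratios depend on these unequal limits.

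**Figure D1:**
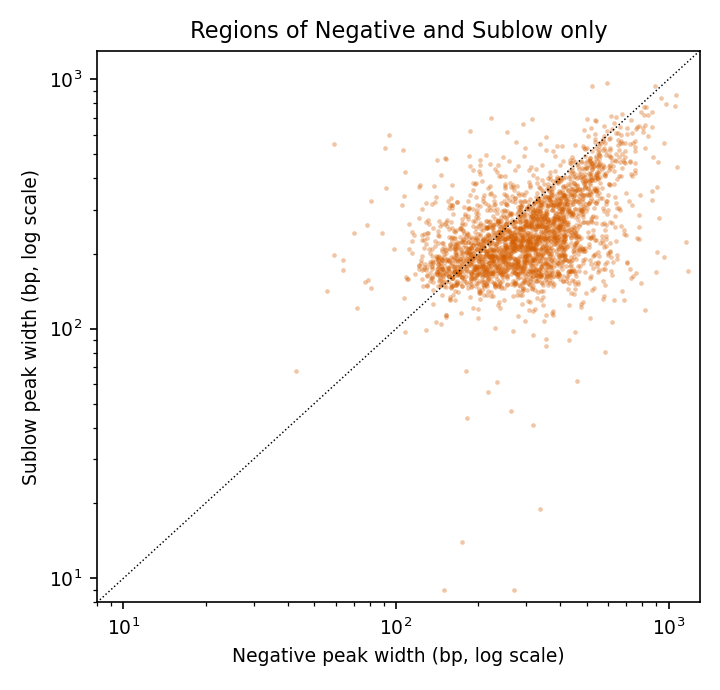
Width of the Sublow peak (vertical axis, bp, log scale) against width of the Negative peak (horizontal axis, bp, log scale) in the 2602 regions of Negative and Sublow only with 1 peak of each, 1 point per region, with equal widths on the dotted line. Most points (1934) lie below the line, where the Negative peak is the wider.

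In regions that all 4 lists held, the order of the widths was the other way round. Of 26222 such regions with 1 Negative and 1 Sublow peak, 85.9% had the wider peak in Sublow, and the median log2 ratio was 0.24 (0.23 to 0.24). Over the whole lists Sublow peaks also had the larger median width, at 464 bp against 394 bp for Negative peaks. Regions held by Negative, Sublow and Low but not High resembled those of all 4 lists in direction, with Sublow the wider in 70.5% of 7239 and a median log2 ratio of 0.23 (0.21 to 0.24). The 426 regions held by Negative, Sublow and High but not Low had a log2 ratio of -0.38 (-0.45 to -0.30), and Sublow was the wider in 25.6% of them. Among regions with both a Negative and a Sublow peak, the median ratio was thus below 0 in both sets that Low lacked and above 0 in both sets that Low held. The widths come from the same lists as the rule, so this contrast is a description.

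**Figure D2:**
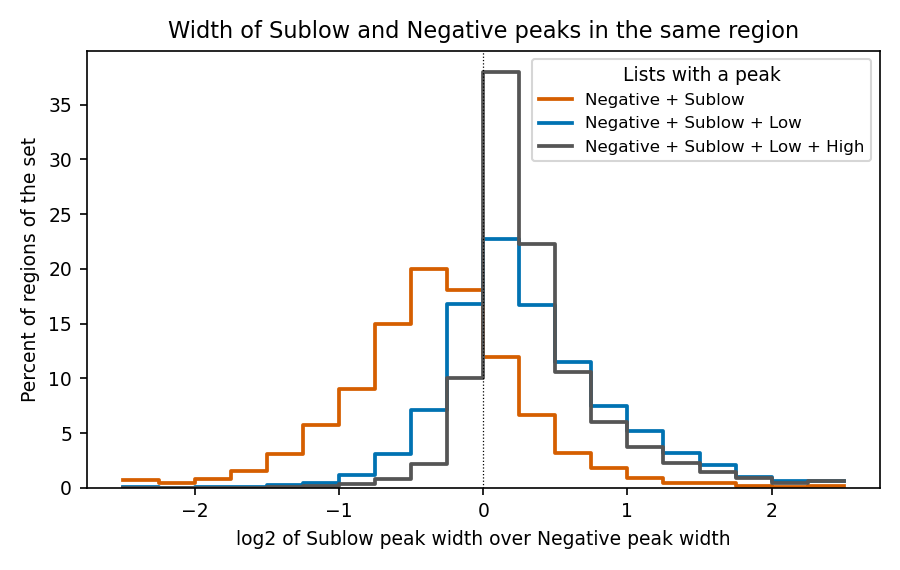
Share of regions (vertical axis, percent) by the log2 ratio of Sublow to Negative peak width (horizontal axis, steps of 0.25, values beyond -2.5 or 2.5 drawn in the end steps), for regions of Negative and Sublow only, of Negative, Sublow and Low, and of all 4 lists. The first set has its median at -0.32, and the others have theirs at 0.23 and 0.24.

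Large gaps between the paired widths were also mostly on the Negative side. Negative peaks at least 2 times as wide as the Sublow peak were found in 324 of the 2602 regions (12.5%), and Sublow peaks at least 2 times as wide as the Negative peak in 55 (2.11%). In regions of all 4 lists the same limits were passed by 0.240% and 9.45%. The widths lay within 1.2-fold of each other in 835 of the 2602 regions (32.1%). The median log2 ratio was below 0 on each of the 20 chromosomes with such regions, from -0.48 on chromosome 19 to -0.23 on chromosome 10.

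The Sublow peak usually lay within the borders of the Negative peak. This was so in 1567 regions (60.2%), while the Negative peak lay within the Sublow peak in 351 (13.5%), the peaks were staggered in 680 (26.1%) and had the same borders in 4. In regions of all 4 lists the nesting was reversed, with the Negative peak inside the Sublow peak in 71.0% and the Sublow peak inside the Negative peak in 6.69%. The midpoints of the paired peaks in Negative and Sublow only regions were a median of 22.5 bp apart, and the peaks shared a median of 206 bp, 0.712 of the bases that either covered. For most of these regions the lists thus placed 1 site with nearly the same centre and different extent. Peaks of a member must meet by the rule, and near centres were not particular to the set. The median distance of the midpoints was 26.5 bp in regions of Negative, Sublow and Low and 30.5 bp in those of all 4 lists.

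Both partners were narrow within their own list, and the Sublow partner more so. The median Sublow peak of these regions stood at percentile 16.0 of all Sublow peaks by width, and the median Negative peak at percentile 36.7 of all Negative peaks. In regions of Negative, Sublow and Low the medians stood at percentile 42.5 of the Sublow list and 38.8 of the Negative list, so there the Sublow partner ranked slightly higher. Negative peaks of the Negative and Sublow only regions (median 305.5 bp) were nearly as wide as those of Negative, Sublow and Low regions (318 bp) and wider than those listed in Negative alone (201 bp). Their Sublow peaks (225 bp) were narrower than those of Negative, Sublow and Low regions (402 bp) and closer to those listed in Sublow alone (184.5 bp).

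The pairs of lists next along the reporter range gave values of the same kind. Where Low and High shared a region alone, the High peak was the wider in 71.3% of 4892, with a median log2 ratio of High to Low width of 0.39, against -0.11 in regions of all 4 lists. Where Sublow and Low shared a region alone, the Low peak was the wider in 67.8% of 5877, with a log2 ratio of Low to Sublow width of 0.16, against -0.01 in regions of all 4 lists. At both ends of the range, then, the list at the end (Negative or High) had the wider peak in most regions that it shared with its neighbour alone, and the narrower peak in most regions of all 4 lists.

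As merged regions, those of Negative and Sublow only had a median width of 325 bp (319 to 332), with quartiles at 247 and 424 bp and a range from 71 to 1175 bp. The 5620 regions listed in Negative alone had a median of 201 bp, those of Negative, Sublow and Low 455 bp and those of all 4 lists 743 bp. Part of this order follows from the number of lists, since joining more peaks gives a longer span. Of the 2613, 383 (14.7%) reached 500 bp, against 2.78% of the regions of Negative alone and 40.4% of those of Negative, Sublow and Low.

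How often a region with both a Negative and a Sublow peak lacked the other lists varied with how wide those peaks were. Over all 37690 such regions, 6.93% were of Negative and Sublow only (6.68 to 7.19%), 72.4% were in all 4 lists, 19.5% were also in Low but not High, and 1.15% were also in High but not Low. Where the mean of the Negative and Sublow peak width was under 200 bp, 30.0% (27.8 to 32.3%) of 1672 regions were of Negative and Sublow only. The share was 20.4% from 200 to under 300 bp, 10.4% from 300 to under 400 bp, 4.36% from 400 to under 500 bp and 0.835% (0.708 to 0.979%) among the 18195 regions at 500 bp and over. Narrow pairs therefore made up most of the set, and 152 regions with a mean of 500 bp or more were its wide end.

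**Figure D3:**
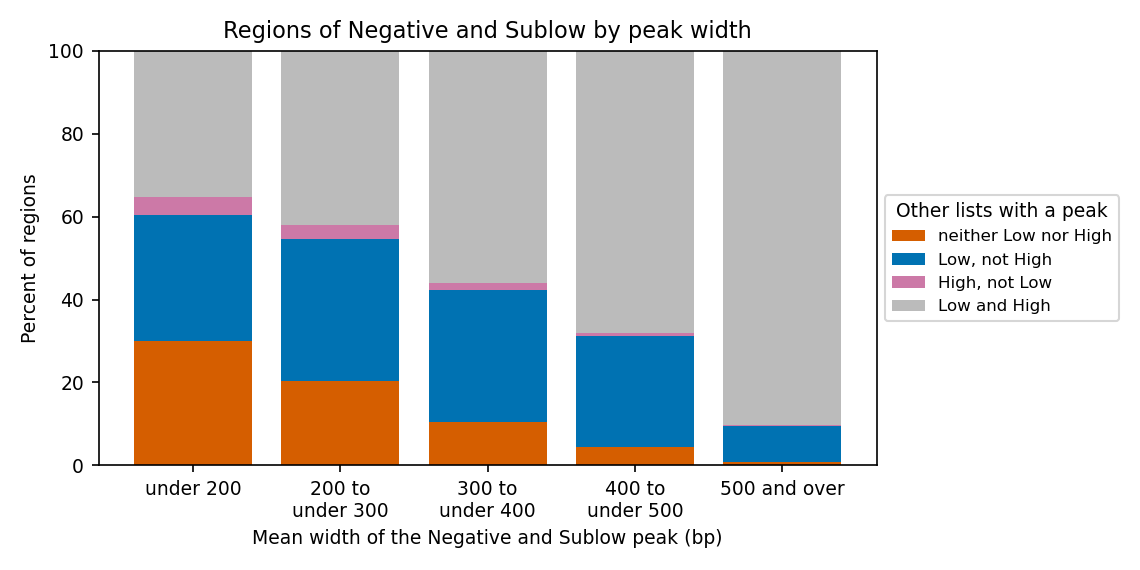
Regions with 1 Negative and 1 Sublow peak, split by the mean width of the pair (horizontal axis, bp), with the percent of regions (vertical axis) for which neither, 1 or both of the Low and High lists also had a peak. The share with neither falls from 30.0% to 0.835% across the classes.

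The width contrast held in pairs of like width, apart from the narrowest. In the classes from 200 bp upward the median log2 ratio of Sublow to Negative width in Negative and Sublow only regions was -0.36, -0.49, -0.41 and -0.28, while in regions of all 4 lists it was 0.49, 0.40, 0.34 and 0.19. Under 200 bp it was 0.04 in the 502 Negative and Sublow only regions and 0.28 in the 591 regions of all 4 lists. Sublow was the wider in 52.8% of the former and 79.7% of the latter. Peaks under 150 bp were few in the set, at 6.19% of its Negative and 5.49% of its Sublow peaks.

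The rule has a sharp edge at an overlap of 1 bp, and few regions lay near it. Just inside, the smallest overlap of a Negative and a Sublow peak was 4 bp at chr11:88488320-88488474, where the Sublow peak was 9 bp wide, then 9 bp at chr6:29785707-29785976 and 13 bp at chr10:61971784-61972253. Only 9 of the 2602 pairs overlapped by 20 bp or less. Just outside, the nearest regions of Negative alone and Sublow alone were 34 bp apart at chr7:97294968-97295148 and 46 bp apart at chr10:82806388-82806751, and 2 such pairs lay within 100 bp. On the side of the other lists, the closest Low or High peak was 48 bp from a member at chr11:83686334-83686659 and at chr17:84545797-84546018, and 8 of the 2613 regions had one within 100 bp. A Low or High peak that met the Negative and Sublow peaks by 20 bp or less, which kept a region out, was found in 6 of 7783 regions with 3 lists, the least being 3 bp at chr3:107398722-107398873.

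Peaks of the lists that lacked these regions were about as far away as other peaks of the lists that held them. The median distance to the nearest Low peak was 4669 bp (4428 to 4930) and to the nearest High peak 6050 bp (5743 to 6407). The nearest Negative peak outside the set was at a median of 5135 bp (4877 to 5384), and the nearest such Sublow peak at 5065 bp (4817 to 5363). Low was the nearer in 1691 regions (64.7%), High in 865 (33.1%), and the distances were equal in 57. No background share is given for this, and the Low list was also the longer, at 58356 peaks against 54395 in High. A Low or High peak lay within 1000 bp of 426 regions (16.3%) and within 5000 bp of 1489 (57.0%). Regions of Negative alone were at like distances, with medians of 4622.5 bp to Low and 5599.5 bp to High. For regions of Low and High only, the reverse distances were longer, at a median of 12380.5 bp to the nearest Sublow and 17348.5 bp to the nearest Negative peak. Their nearest region of any other pattern was also farther away, at a median of 6704.5 bp against 3299 bp for Negative and Sublow only regions. The Sublow and Negative lists were also shorter than the Low and High lists, at 52113 and 45461 peaks.

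The width ratio was closer to 0 in regions near a Low or High peak than in those far from one. The median log2 ratio of Sublow to Negative width was -0.21 (-0.26 to -0.16) in the 424 paired regions with a Low or High peak within 1000 bp, -0.32 in the 1057 beyond 1000 and up to 5000 bp, -0.34 in the 851 beyond 5000 and up to 20000 bp and -0.36 (-0.41 to -0.30) in the 270 beyond 20000 bp. The Sublow peak was the wider in 32.8% of the nearest and 21.1% of the farthest of these sets, and the median ratio was below 0 in all 4.

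The neighbours of Negative and Sublow only regions were held by Negative and not High more often than the genome-wide mix. So were those of the most similar sets and, to a lesser degree, those of regions of all 4 lists. The nearest region outside the set was at a median of 3299 bp, and 41.7% (39.8 to 43.6%) of these neighbours lacked High, against 32.8% of all other merged regions. Neighbours held by Negative alone made up 13.7% against 7.05% over all other regions, and those of Negative, Sublow and Low 13.8% against 9.22%. Neighbours of High alone were 9.57% against 17.2%, and those of Low and High only 2.79% against 6.17%. The most frequent neighbour was a region of all 4 lists, at 38.7% against 34.2%. Neighbours held by Negative and not High were 27.7% against 16.6% of all other regions, a ratio of 1.67. For regions of Negative alone the same shares were 21.2% against 13.3% (1.59), and for those of Negative, Sublow and Low 17.4% against 11.3% (1.54). Neighbours that lacked High stood at a ratio of 1.27 for Negative and Sublow only regions and 1.28 for those of Negative, Sublow and Low. For regions of all 4 lists, neighbours held by Negative and not High were 35.5% against 28.8% (1.23). Those that lacked High stood there at a ratio of 1.14.

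**Figure D4:**
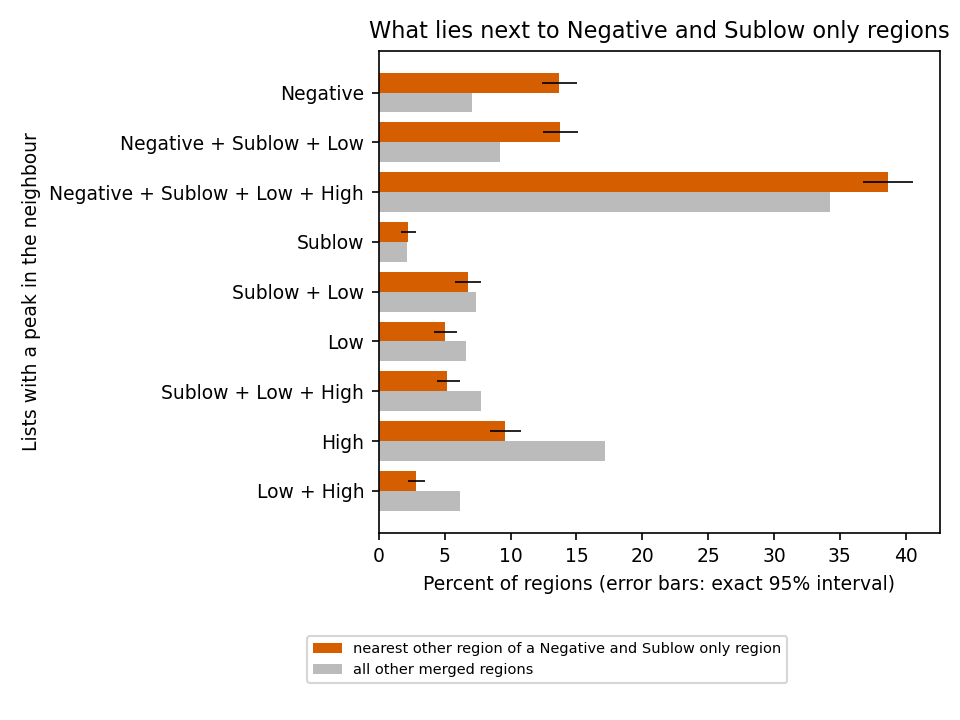
Lists with a peak in the nearest region outside the set (orange, percent of 2613, with exact 95% intervals) beside all other merged regions (grey), for the patterns with at least 50 such neighbours, ordered by the ratio of the bars. Negative alone (13.7 against 7.05%) stands at one end and Low with High (2.79 against 6.17%) at the other.

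Nearest regions are drawn from crowded parts of the genome, so the mix was also read by distance and beside regions of all 4 lists. Within 1000 bp of a Negative and Sublow only region, 35.5% of 349 regions were held by Negative and not High and 11.5% by High and not Negative. Members were not counted in the 35.5%, or in the like shares below, but stayed among the 349, of which they formed 10.3%. Around regions of all 4 lists the corresponding shares were 22.7% and 22.8% of 1927. The contrast was small at 1000 to 5000 bp, a range that holds the median distance to the nearest region outside the set, 3299 bp. There the shares were 24.5% and 17.9% around Negative and Sublow only regions, against 23.2% and 20.2% around regions of all 4 lists. The contrast was larger again at 5000 to 20000 bp, at 24.875% and 18.2% against 17.997% and 22.4%. At 100000 to 500000 bp the shares around Negative and Sublow only regions were 16.7% and 27.6%, near the 16.1% and 30.4% of all merged regions. Regions of Negative alone formed 20.6% of those within 1000 bp and 7.13% of those at 100000 to 500000 bp, against 6.82% overall. At 1000 to 5000 bp they formed 11.4%, against 11.0% around regions of all 4 lists. A region can be counted here around several members, so these shares have no interval.

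Regions of Low and High only gave the mirror image. Of their neighbours 41.4% were held by High and not Negative, against 26.0% of all other regions, and 13.2% by Negative and not High, against 20.5%. For Negative and Sublow only regions, neighbours held by High and not Negative were 17.7% against 31.4%.

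A few of the regions lay in groups. The nearest region of any pattern was another member for 152 of 2613 (5.82%, 4.95 to 6.78%), where members were 3.17% of all regions. Nearest regions come from crowded parts of the genome, so this share is not a like background. Within 1000 bp, members formed 10.3% of the regions around members and 4.83% of those around regions of all 4 lists. At 1000 to 5000 bp these shares were 5.90% and 4.61%. The distance to the nearest other member had a median of 115905 bp, and it was at most 10000 bp for 292 (11.2%). In the order of merged regions along the chromosomes, 261 members (9.99%) directly followed or preceded another member, in 114 runs of 2, 8 runs of 3, and 1 run each of 4 and 5. This counts the regions on either side, so the 3.17% is not a like background for it, and none was computed. Most members, 2352, stood singly between regions of other patterns.

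The longest run was on chromosome 6 (chr6:85761082-85785739), where 5 members lay within 24658 bp. They were 5 of only 6 regions in the 100 kb from 85700001 to 85800000, the sixth being held by Sublow and Low, and High had no peak in the window. Their Negative peaks were 398, 664, 213, 517 and 515 bp wide and their Sublow peaks 325, 642, 205, 635 and 483 bp, in order along the chromosome. Both lists thus gave peaks of like width at this cluster, and the nearest High peak was between 32764 and 57024 bp away. The run of 4 was on chromosome 17 (chr17:34668153-34687126), where the members were narrow, from 218 to 291 bp.

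The other windows of 100 kb with the most members were mixed with regions of other patterns. On chromosome 11, the window from 78200001 to 78300000 had 5 members among 16 regions, with 3 of Negative alone and 2 of all 4 lists. The window on chromosome 17 from 34600001 to 34700000 had 5 members among 13 regions, and there all 13 had a Negative peak, 10 a Sublow, 5 a Low and 6 a High peak. On chromosome 19, from 32500001 to 32600000, 5 members stood among 17 regions with 4 of Negative alone, and 16 of the 17 had a Negative peak. A window with 4 members among 11 regions followed on chromosome 5 from 102100001 to 102200000, the first by position of 10 windows with 4. Of the 24 members in these 5 windows, 17 had the wider peak in Negative. The windows were picked for their number of members, so that number is a description.

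**Figure D5:**
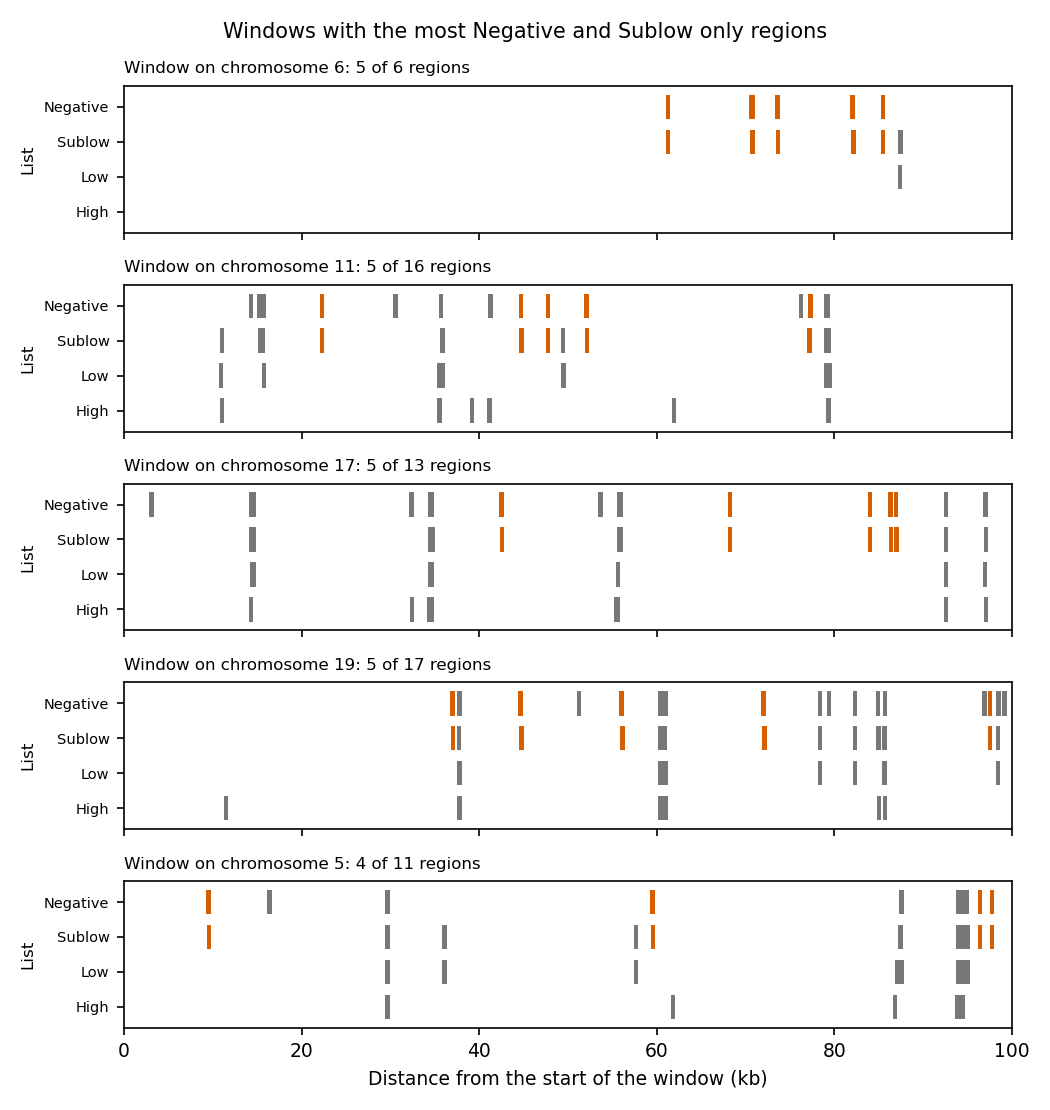
Peaks of the 4 lists (rows) in the 5 windows of 100 kb with the most Negative and Sublow only regions (orange), with other peaks in grey, by distance from the window's start (horizontal axis, kb). Peaks under 0.5 kb are drawn 0.5 kb wide. On chromosome 6 the 5 members take up nearly all peaks, while in the other windows they stand among peaks of other patterns.

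Members were spread over the genome, with at least 1 in 2174 of the 15363 windows of 100 kb that held any region, and 1813 of these windows held a single one. Windows with a member also held a region of Negative alone more often than windows of like region number without one. Among windows with 5 to 8 regions this was 40.8% of 669 against 31.4% of 3325, and for 9 to 12 regions 56.7% of 607 against 45.0% of 1490. For regions of High alone the order was reversed, at 50.1% against 63.7% and 60.0% against 74.2%. A window with members has that many regions fewer that could be of another pattern, 2 to 5 in 361 of the 2174 windows, and the effect of this on the shares was not measured.

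By chromosome, members made up from 2.46% of the merged regions on chromosome 15 (83 of 3380, 1.96 to 3.04%) to 4.43% on chromosome 19 (117 of 2639, 3.68 to 5.29%), against 3.17% over the genome. Chromosome 19 was the 1 autosome of 19 whose interval lay above that share, and chromosomes 15 and 7 (2.60%, 2.18 to 3.08%) had intervals below it. With 19 chromosomes compared and no adjustment, these are descriptions. The 5 Mb of chromosome 19 with the most members, from 30000001 to 35000000, held 19 among 212 regions (8.96%), and without it the chromosome's share was 4.04% (3.29 to 4.90%). Regions of Negative alone were 7.50% of those on chromosome 19 against 6.82% on all chromosomes, and those of High alone 15.2% against 16.6%. The X chromosome had 58 members among 1605 regions (3.61%), and the Y chromosome had none among 25.

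The 10 widest members lay on 8 chromosomes, and in each of them 1 peak covered the whole merged region. In 8 of the 10 this was the Negative peak. The widest, chr1:31099705-31100879, had a Negative peak of 1175 bp and a Sublow peak of 171 bp inside it, with the nearest Low peak 6156 bp away. Next came chr6:28419806-28420962, with a Negative peak of 1157 bp and a Sublow peak of 223 bp. At chr13:58589758-58590834 the peaks were 1077 and 443 bp wide, and the nearest Low peak was 35020 bp away. Both peaks were wide at chr12:55560471-55561534, with 1064 bp in Negative and 861 bp in Sublow, and at chr19:21561403-21562454, with 1052 and 778 bp. The exceptions with a wider Sublow peak were chr1:153871766-153872729, at 595 bp in Negative and 964 bp in Sublow, and chr2:35673991-35674933, at 525 and 943 bp. Even these wide regions differed greatly in how the lists shared them, from a log2 ratio of Sublow to Negative width of -2.78 to one of 0.84. The smallest distance from any of the 10 to a Low or High peak was 3077 bp.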

How the data were processed

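The deposited files are consensus peak lists, 1 for each population, with chromosome, start, end and peak name and no score, height or count. The way the authors combined the 3 libraries of a population is not stated in the labels. Per the submitters' processing notes, reads were handled on mm9 with MACS2 2.1.2, deepTools 2.5.2, Picard 2.10.3, Bowtie2 2.3.4 and Trim Galore 0.4.3, named without role or setting, and a shift for the Tn5 offset is not stated. Positions were read as counted from 1 with the end included. The gene and sequence tables at hand were on GRCm38 and were not used, so the planned gene lists, gene positions, motifs and sequences were not analysed here.

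Merging, paired widths, neighbours, distances and windows were computed in Python 3.11.15 with scipy 1.17.1, pandas 2.3.3, numpy 2.4.6 and matplotlib 3.10.9. Distances are the bases between region edges, and neighbours the nearest merged region outside the set. Shares have exact binomial (Clopper-Pearson) and medians exact order-statistic intervals at 95%. The rule for naming took the 10 widest members (7 are named), those at the edges of the rule, and the 5 windows richest in members on a fixed 100 kb grid. The set, rule and alternatives were chosen with earlier results of these data known. The code was tested on simulated data, where 100% of 82365 regions received the right pattern. The simulated regions lay apart and each had 1 peak that spanned it, so peaks that barely overlap or touch were not tested.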

Additional observations from a re-analysis of the deposited data

How the results depend on the processing

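No paired analysis was possible because the lists hold no values for single libraries, so neither could a replicate be left out. The alternatives for genes and motifs were not run, since no mm9 annotation or genome was used. Of 36 values under alternatives, 25 stayed within 1.5-fold (counts) or inside the interval of the reported value. The setting that changed the picture kept the widest 22730 peaks of each list. It gave 1253 regions with a median width of 628 bp, the Sublow peak wider in 66.7%, a log2 ratio of Sublow to Negative width of 0.12, and 35.9% of neighbours lacking High, against 31.5% of all other regions in that setting. These are mostly different regions: 77 of the 1253 (6.15%) were of Negative and Sublow only in the full lists, and 93.2% had a Low peak there. The narrowest peaks kept were 394 bp (Negative), 520 bp (Sublow) and 526 bp (Low). Whether each of those Low peaks fell below its limit was not checked. Among the 77, the Sublow peak was wider in 33.8% and the median log2 ratio was -0.08. The limits differ between the lists and act on the widths compared, so these values cannot be set beside those of all members. The log2 ratio stayed below 0 in the other 6 settings, which were chosen for it after seeing the data, as was reading positions as half-open. With peaks of at least 200 bp the median width was 372 bp and the log2 ratio -0.25, and 65.3% of those 2240 regions overlapped or touched a member of the full lists. With a reciprocal overlap of 50% the Sublow peak was wider in 30.2% and the log2 ratio was -0.20. The share of neighbours lacking High was 39.4% on merging peaks up to 500 bp apart, against 31.5% of all other regions so merged, and 39.2% with the nearest regions on both sides, against 32.8% of all other regions as merged in the report. Depth is unknown, so a region that a list lacks may have been closed or missed.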
